A study of Mus musculus with 26 samples.

Results

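The Janus kinases and their SOCS feedback inhibitors were followed in ear skin of mice with MC903 dermatitis. The 4 kinases were Jak1, Jak2, Jak3 and Tyk2, and the 5 inhibitors were Socs1, Socs2, Socs3, Socs5 and Cish. They were chosen by gene symbol, and all 9 were found among the 57010 gene identifiers of the count table and had enough reads to be tested. Positions are on GRCm39, and all 9 are protein-coding genes. RNA came from 1 ear biopsy of each of 26 female Balb/cAnNRj mice of wild-type genotype, bought at 8 weeks of age. The vehicle group (n = 6) was given neither MC903 nor a drug. The MC903 group (n = 8) was painted on the right ear with MC903 for 6 days at a daily 1 nmol and was treated with drug-vehicle. The RGRN-305 group (n = 8) had the same challenge and was treated on the ear with RGRN-305, 1 mg daily, and the dexamethasone group (n = 4) had it with dexamethasone, 20 nmol daily. All biopsies were taken on day 9. Calcipotriol, the compound named MC903, is an analog of vitamin D and causes a dermatitis when put on mouse skin. RGRN-305 inhibits the chaperone HSP90, and dexamethasone is a glucocorticoid. Each drug was given at 1 dose, so the comparison of the drugs is a comparison of these doses.

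Janus kinases sit in pairs on the tails of cytokine receptors. When a cytokine joins the receptor chains, the kinases phosphorylate each other, the receptor and the STAT transcription factors, which move to the nucleus. SOCS genes are among the genes that STATs switch on, and their proteins block the kinases or the receptor and so close a feedback loop. In skin this pathway carries the signals of IL-4, IL-13, TSLP, IL-31, IL-6, oncostatin M and the interferons, and inhibitors of Janus kinases are used to treat atopic dermatitis. The data are transcript levels and say nothing of kinase activity.

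The libraries held 13695023 to 35130972 counts, and the smallest library was vehicle mouse 2. Over all genes, the markers of skin cells fitted the labelled tissue, since every one of the 7 keratinocyte markers had counts in each group and their summed level was between 27810 and 64493 CPM (counts for every 1000000 counts of a library). The summed level of 6 general leukocyte markers (Ptprc, Laptm5, Coro1a, Cd52, Cd53 and Itgb2) was 93.2 to 139 CPM in vehicle mice, 391 to 601 CPM in MC903 mice, 167 to 299.97 CPM in RGRN-305 mice and 72.3 to 190 CPM in dexamethasone mice. All 6 were higher in MC903 than in vehicle mice, as were 34.5% of all genes. All 6 were lower with either drug than with MC903 alone, as were 19.4% of all genes with RGRN-305 and 23.3% with dexamethasone. Dexamethasone mouse 3 stood apart from the other mice of its group, with 190 CPM of leukocyte markers against 72.3, 94.6 and 121 CPM. Results that rest on it are given with and without it, except for the correlations from mouse to mouse.

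Levels are given as CPM on scaled library sizes, and folds are on the log2 scale with their standard error (SE) from 1 edgeR quasi-likelihood model of all 26 libraries. A gene is called when its p, adjusted over all 20167 genes tested by Benjamini-Hochberg, is below 0.05. The study's own limit for differentially expressed genes (DEGs) adds an absolute log2 fold change above 1.5. In bulk tissue, fewer cells of a type and less RNA per cell cannot be told apart.

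MC903 raised 7 of the 9 genes and lowered 1. Of all genes tested 70.2% were called in this comparison, 34.5% as higher and 35.7% as lower. The median log2 fold change was 1.23 over the 9 genes and -0.02 over all genes. The inhibitors Socs1 and Socs3 rose the most and were the 2 members past the DEG limit, which 15% of all genes passed. Jak2 and Cish rose 2.65-fold and 2.66-fold, Tyk2 fell, and Socs5 was not called. In 6 of the 9 genes the MC903 and vehicle mice did not overlap, as in 42% of all genes.

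**Figure D1:**
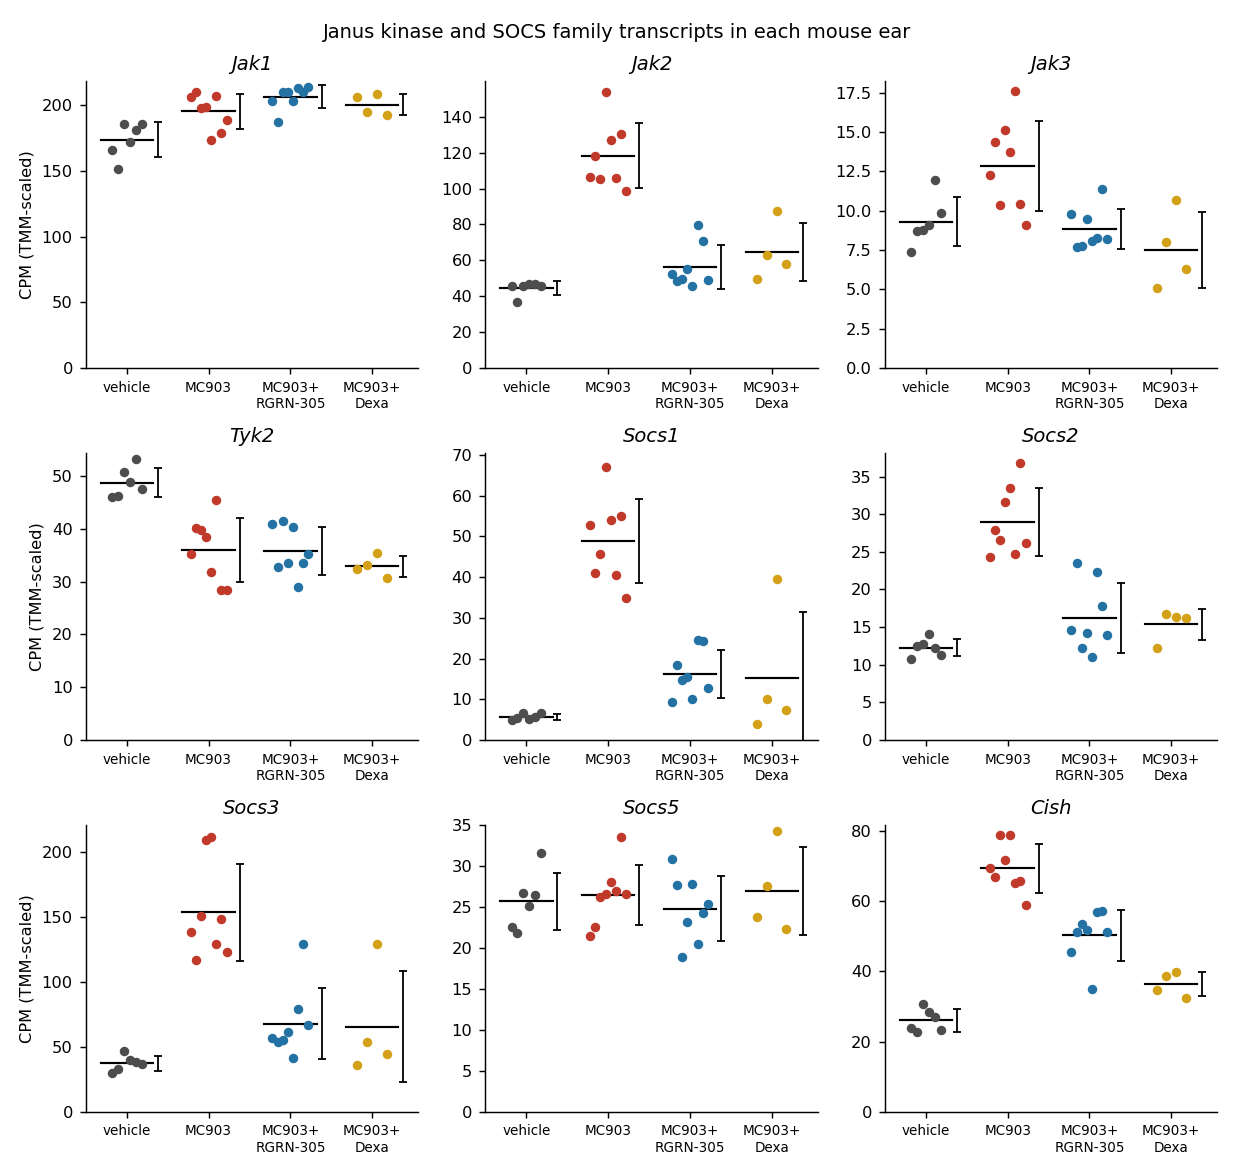
CPM (counts for every 1000000 counts, on scaled library sizes) of each of the 9 genes in every mouse, with 1 point per mouse, a line at the group mean and a bar of 1 SD beside it. The SD bar of Socs1 in dexamethasone mice runs below the axis because mouse 3 lay at 39.4 CPM and the other 3 mice between 4.01 and 10.1 CPM.

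Jak1 (chr4:101008838-101122487, minus strand) serves most cytokine receptors of the skin, among them those of IL-4, IL-6 and the interferons. It had the highest level of the 4 kinases and moved little. Jak1 was at 151 to 186 CPM in vehicle mice (median 177), 174 to 210 CPM in MC903 mice (median 198), 187 to 214 CPM in RGRN-305 mice (median 210) and 206, 195, 208 and 193 CPM in dexamethasone mice 1 to 4. The MC903 and vehicle ranges overlapped, and 6 of 8 MC903 mice lay above every vehicle mouse. The rise with MC903 was 1.12-fold (log2 0.17, SE 0.06, adjusted p = 0.00828, edgeR).

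Jak2 (chr19:29228677-29290505, plus strand) serves the receptors of the common beta chain family, interferon gamma and growth hormone. Its level was 36.7 to 46.7 CPM in vehicle mice (median 45.7), 98.8 to 154 CPM in MC903 mice (median 112) and 45.7 to 79.9 CPM in RGRN-305 mice (median 51.1). The 4 dexamethasone mice had 49.9, 63.1, 87.2 and 57.9 CPM. Every MC903 mouse lay above all mice of the other 3 groups. The rise with MC903 had a log2 fold change of 1.41 (SE 0.13, adjusted p = 3.35e-10, edgeR).

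Jak3 (chr8:72123007-72143225, plus strand) works with the common gamma chain of the IL-2 and IL-4 receptors and is found mainly in blood cells. It was the lowest of the kinases, with 125 to 382 reads per library. Its level was 7.35 to 12.0 CPM in vehicle mice (median 8.95), 9.12 to 17.6 CPM in MC903 mice (median 13.0), 7.70 to 11.4 CPM in RGRN-305 mice (median 8.23) and 5.11, 8.04, 10.7 and 6.30 CPM in dexamethasone mice. The ranges of MC903 and vehicle overlapped, and the rise was 1.39-fold (log2 0.47, SE 0.15, adjusted p = 0.00675, edgeR). The leukocyte markers had a median log2 fold change of 2.14 in the same comparison, and their part in the change of Jak3 was not tested.

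Tyk2 (chr9:21015363-21042689, minus strand) serves the receptors of type I interferon, IL-12 and IL-23. It was the single member that fell. Tyk2 was at 46.0 to 53.2 CPM in vehicle mice (median 48.3) and at 28.4 to 45.4 CPM in MC903 mice (median 36.8), with no overlap. The fall was 0.44 on the log2 scale (log2 fold change -0.44, SE 0.09, adjusted p = 0.000127, edgeR). RGRN-305 mice had 29.1 to 41.6 CPM (median 34.4) and dexamethasone mice 32.5, 33.2, 35.4 and 30.6 CPM, so all treated mice lay below all vehicle mice.

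Per kilobase of gene length, the order of the kinases in vehicle skin was Jak1 (24.0 CPM per kb), Jak2 (8.85), Tyk2 (7.11) and Jak3 (1.74). Jak2 and Tyk2 overlapped across mice, but Jak2 was above Tyk2 in each of the 6 mice. In CPM not divided by length, the vehicle means were 44.5 for Jak2 and 48.8 for Tyk2, so this order depends on the deposited gene lengths. In MC903 skin Jak2 came near to Jak1, with 23.5 against 27.0 CPM per kb, and 5 of 8 mice had more Jak1 than Jak2. Of the summed level per kb of the 4 kinases, Jak2 made up 21.2% in vehicle mice, 40.3% with MC903 alone, 23.9% after RGRN-305 and 27.2% after dexamethasone. The share of Tyk2 was 17.1% in vehicle mice and 8.99%, 11.3% and 10.3% in the treated groups, named in the same order. With either drug, Jak1 was above Jak2 in every mouse and their ranges did not overlap.

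Socs1 (chr16:10600104-10603875, minus strand) binds Janus kinases directly and blocks their active site, and it restrains interferon gamma and IL-4 signals. It changed the most of the 9 genes. Socs1 was at 4.90 to 6.64 CPM in vehicle mice (median 5.45), 34.8 to 67.1 CPM in MC903 mice (median 49.2) and 9.37 to 24.6 CPM in RGRN-305 mice (median 15.2). The dexamethasone mice had 4.01, 10.1, 39.4 and 7.36 CPM. MC903 and RGRN-305 mice did not overlap with each other or with vehicle mice, while dexamethasone mouse 3 lay within the MC903 range and the other 3 mice lay near vehicle. The rise with MC903 was 8.55-fold (log2 3.10, SE 0.38, adjusted p = 1.54e-07, edgeR).

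Socs3 (chr11:117856905-117860898, minus strand) binds receptors of the gp130 family together with their kinases and ends IL-6 type signals. It had the highest level of the inhibitors. Socs3 was at 29.99 to 46.7 CPM in vehicle mice (median 37.5), 117 to 212 CPM in MC903 mice (median 144) and 41.1 to 129 CPM in RGRN-305 mice (median 59.1). In dexamethasone mice it was at 35.7, 53.4, 129 and 44.2 CPM. RGRN-305 mouse 7 and dexamethasone mouse 3 were the mice that reached into the MC903 range. The rise with MC903 was 4.10-fold (log2 2.04, SE 0.27, adjusted p = 5.82e-07, edgeR).

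Cish and Socs2 are known targets of STAT5. Cish is induced by cytokines of the IL-2 family, and Socs2 is best known as a brake on growth hormone. Cish (chr9:107173225-107179983, plus strand) was at 22.7 to 30.8 CPM in vehicle mice (median 25.4), 58.8 to 79.0 CPM in MC903 mice (median 68.1), 34.9 to 57.3 CPM in RGRN-305 mice (median 51.6) and 34.6, 38.7, 39.7 and 32.5 CPM in dexamethasone mice. Each treated group lay above all vehicle mice, and both drug groups lay below all MC903 mice. Cish had the smallest p of the 9 genes for MC903 against vehicle (log2 1.41, SE 0.10, adjusted p = 6.3e-13, edgeR).

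Socs2 (chr10:95219523-95253929, minus strand) was at 10.8 to 14.1 CPM in vehicle mice (median 12.4), 24.3 to 36.9 CPM in MC903 mice (median 27.3), 11.03 to 23.6 CPM in RGRN-305 mice (median 14.4) and 12.3, 16.7, 16.3 and 16.3 CPM in dexamethasone mice. MC903 mice overlapped with no other group. The rise was 2.35-fold (log2 1.23, SE 0.14, adjusted p = 1.15e-08, edgeR).

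Socs5 (chr17:87414674-87445267, plus strand) has been described as a brake on the IL-4 and EGF receptors. It stayed in 1 range, with 21.8 to 31.5 CPM in vehicle mice (median 25.7), 21.4 to 33.5 CPM in MC903 mice (median 26.5), 18.9 to 30.8 CPM in RGRN-305 mice (median 24.8) and 23.7, 27.5, 34.2 and 22.3 CPM in dexamethasone mice. All groups overlapped. No comparison called it, and its log2 fold change with MC903 was 0.04 (SE 0.11, adjusted p = 0.759, edgeR).

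Per kb, Socs3 was the first of the 5 inhibitors in every mouse, with means of 12.9 CPM per kb in vehicle and 53.1 in MC903 mice. Its range overlapped with that of Socs1 in dexamethasone mice, where Socs1 reached 13.6 CPM per kb in mouse 3 and Socs3 was at 12.4 in mouse 1, and with no other range of the 5. Socs1 was the fourth in vehicle mice (1.96 CPM per kb) and the second in MC903 mice (16.8). Cish (10.8) followed it there, with ranges that overlapped. In CPM not divided by length, the mean of Cish was above that of Socs1 in MC903 mice (69.4 against 48.9). Their order and the shares thus depend on the deposited gene lengths (6419 bases for Cish, 2908 for Socs1). The share of Socs1 in the summed level of the 5 inhibitors was 8.10% in vehicle mice, 19.1% with MC903 alone, 13.0% after RGRN-305 and 10.98% after dexamethasone, and 8.32% after dexamethasone without mouse 3. The share of Socs5 was 16.6% in vehicle and 4.80% in MC903 mice while its own level hardly moved.

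**Figure D2:**
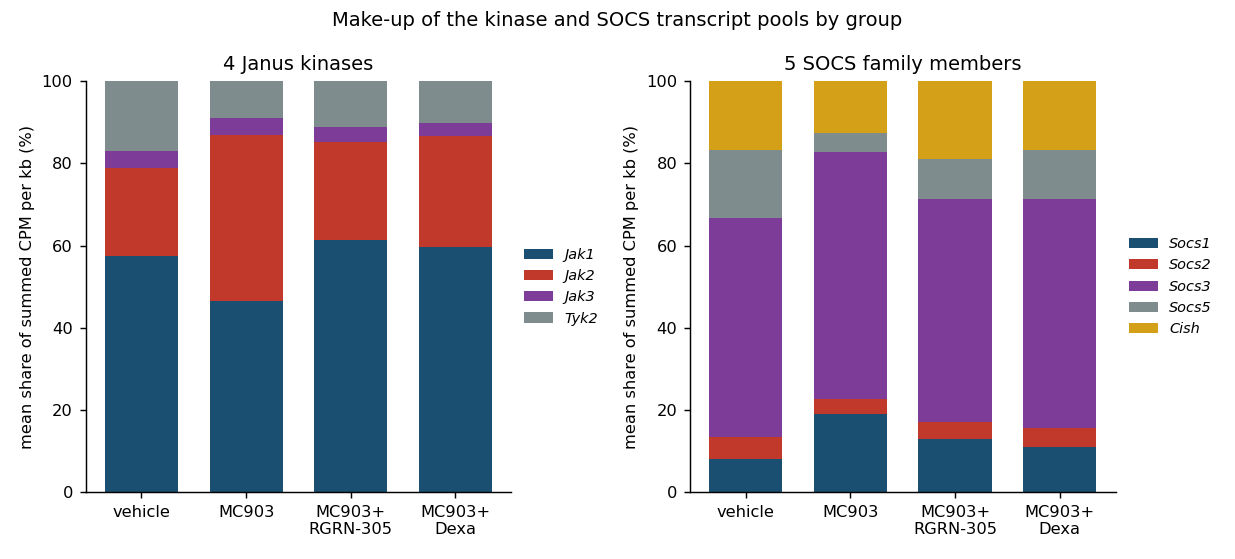
Mean share (%) of each gene in the summed CPM per kb of the 4 kinases (left) and of the 5 SOCS family members (right), in each group. The Jak2 part of the kinase bar is 21.2% in vehicle and 40.3% in MC903 mice, and Socs3 is the largest part of every SOCS bar. The shares depend on the deposited gene lengths.

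STAT dimers bind palindromes of the form TTCNNNGAA, and STAT6 also binds the form with 1 more base, TTCNNNNGAA. Both forms read the same on the other strand, and a match to one may overlap a match to the other. They were looked for in the 250 bases before the start of the transcript that GENCODE marks as canonical for each gene (GRCm39). This start is called the GENCODE start. For Jak3 (72128692), Socs2 (95252972), Socs3 (117860123) and Socs5 (87414993) it lies inside the gene interval given above. The windows of these genes thus lie within the gene and not before it. Stretches with matches are shown for Socs1, Socs3 and Jak2, and for Cish a stretch at its RefSeq start. Neither form was in the GENCODE windows of Socs2, Jak1 and Jak3, which rose with MC903 too, or of Tyk2 and Socs5. Capitals mark the palindromes. The Socs1 stretch is the whole window before the start (chr16:10603876-10604125, minus strand), with 3 palindromes of the longer form. The Socs3 stretch (chr11:117860327-117860356, minus strand) holds a site that begins 223 bases before the start, and the Jak2 stretch (chr19:29228529-29228558, plus strand) a site 138 bases before it.
Socs1: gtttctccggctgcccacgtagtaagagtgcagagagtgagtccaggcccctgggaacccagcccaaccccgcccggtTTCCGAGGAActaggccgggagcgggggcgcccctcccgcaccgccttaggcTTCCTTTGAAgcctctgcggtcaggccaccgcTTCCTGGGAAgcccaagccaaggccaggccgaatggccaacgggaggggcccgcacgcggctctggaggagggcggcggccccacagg
Socs3: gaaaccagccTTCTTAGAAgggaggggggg
Jak2: aagcggtcccTTCGCAGAAgtggtggttaa
Cish: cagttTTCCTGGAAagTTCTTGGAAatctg

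The Cish stretch (chr9:107173853-107173882, plus strand) lies at the RefSeq start, 633 bases after the GENCODE start, and holds 2 palindromes of the shorter form. It was found in the RefSeq promoter table (GRCm38.p6), which held 7 of the 9 genes, and then matched to GRCm39. Only 30 bases are shown for Socs3 and Cish because these stretches lie in exons that GENCODE gives for these genes. The shorter form was in 7.7% of the 21770 GENCODE windows, and among the 9 genes in those of Jak2 and Socs3. The longer form was in 5.89% of these windows and in those of Socs1 and Cish. The Cish match in its GENCODE window begins 226 bases before the GENCODE start and is not among the stretches shown. In the RefSeq windows of 300 bases the shorter form was in 8.3% of 32851 and in those of Socs3 and Cish, and the longer form in 6.95% and in none of the 7. The windows of the 2 annotations differ in start sites, length and build, and their matches differ. A match of letters is not a measured binding site.

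RGRN-305 lowered 6 of the 9 genes relative to MC903 alone and raised 0. Of all genes tested 37.9% were called, 18.6% as higher and 19.4% as lower. The 6 were Jak2, Jak3, Socs1, Socs2, Socs3 and Cish, and DESeq2 called 6 lower and 0 higher as well. At an unadjusted p below 0.05, 0 genes were higher. The median log2 fold change was -0.54 over the 9 genes and 0.03 over all genes. Socs1 was the 1 member past the DEG limit, which 3.68% of all genes passed. The groups did not overlap in 4 of the 9 genes (Jak2, Socs1, Socs2 and Cish), as in 10.7% of all genes.

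The kinases parted under RGRN-305. Jak2 fell by 1.07 on the log2 scale (-1.07, SE 0.12, adjusted p = 9.96e-08, edgeR), and Jak3 fell as well (log2 -0.54, SE 0.14, adjusted p = 0.00265). Jak1 (0.08, adjusted p = 0.227) and Tyk2 (-0.01, adjusted p = 0.962) were not called. Among the inhibitors, the log2 fold change was -1.59 for Socs1 (SE 0.31, adjusted p = 0.000314), -1.17 for Socs3 (SE 0.24, adjusted p = 0.000417), -0.84 for Socs2 (SE 0.13, adjusted p = 7.95e-06) and -0.46 for Cish (SE 0.09, adjusted p = 8.07e-05). Socs5 was not called (-0.09, adjusted p = 0.518). All these calls held with any 1 mouse left out.

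The mice of the RGRN-305 group were not alike. Mice 6 and 7 had the highest levels of the group for Jak2 (79.9 and 70.9 CPM), Socs1 (24.6 and 24.3 CPM), Socs3 (79.5 and 129 CPM) and Cish (56.8 and 57.3 CPM). Their leukocyte markers summed to 299.97 and 253 CPM, with 167 to 254 CPM in the other 6 mice, and their neutrophil markers to 65.8 and 58.3 CPM, with 21.8 to 38.9 CPM in the others. The part of these cells in the spread was not tested.

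RGRN-305 mice still differed from vehicle mice in 7 of the 9 genes, 6 higher and 1 lower, with 59.9% of all genes called, 30.3% as higher and 29.5% as lower. Socs1 lay at the DEG limit, which 8% of all genes passed, and fell below it in 7 of 14 fits with 1 mouse left out. In this comparison the groups did not overlap in 4 of the 9 genes, as in 28.6% of all genes. Cish (log2 0.95, SE 0.10, adjusted p = 2.31e-09, edgeR) and Socs1 (1.51, SE 0.36, adjusted p = 0.0011) were higher in every RGRN-305 mouse than in any vehicle mouse. Jak1 (0.25, SE 0.06, adjusted p = 0.000352) was higher and Tyk2 (-0.44, SE 0.09, adjusted p = 0.000155) lower, also with no overlap. Socs3 (0.86, SE 0.26, adjusted p = 0.00703) and Socs2 (0.40, SE 0.14, adjusted p = 0.0158) were higher with overlapping groups. Jak2 was higher as well (0.34, SE 0.13, adjusted p = 0.0232), but the call was lost without vehicle mouse 2 (0.27, adjusted p = 0.0796), RGRN-305 mouse 6 (0.25, adjusted p = 0.065) or RGRN-305 mouse 7 (0.27, adjusted p = 0.0732).

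Dexamethasone lowered 6 of the 9 genes relative to MC903 alone and raised 0, with 46.4% of all genes called, 23% as higher and 23.3% as lower. This comparison uses the same MC903 mice as that of RGRN-305. At an unadjusted p below 0.05, 0 genes were higher, and DESeq2 called 6 lower and 0 higher. The median log2 fold change was -0.88 over the 9 genes and 0.00 over all genes. Socs1 passed the DEG limit, as did 8.48% of all genes, but not without dexamethasone mouse 1 or mouse 4. The groups did not overlap in 3 of the 9 genes (Jak2, Socs2 and Cish), as in 26.7% of all genes.

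Of the kinases, Jak2 (log2 -0.88, SE 0.15, adjusted p = 2.47e-05, edgeR) and Jak3 (-0.78, SE 0.18, adjusted p = 0.00062) fell with dexamethasone. Jak1 (0.04, adjusted p = 0.647) and Tyk2 (-0.13, adjusted p = 0.33) were not called. The inhibitor Cish fell by 0.93 on the log2 scale (-0.93, SE 0.11, adjusted p = 8.18e-08) and Socs2 by 0.91 (-0.91, SE 0.16, adjusted p = 4.09e-05). Socs1 had -1.70 (SE 0.41, adjusted p = 0.00163) and Socs3 -1.23 (SE 0.31, adjusted p = 0.00216).

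Mouse 3 weighed most on the values of Socs1 and Socs3. Without it, Socs1 was at -2.77 (SE 0.31, adjusted p = 1.12e-07, edgeR) and Socs3 at -1.79 (SE 0.28, adjusted p = 1.52e-05). Jak2 was then at -1.05 (SE 0.15, adjusted p = 2.1e-06) and Jak3 at -0.99 (SE 0.18, adjusted p = 6.17e-05). The count of members stayed at 6 lower and 0 higher, and 2 members (Socs1 and Socs3) passed the DEG limit. Mouse 3 was also high in genes outside the 9 that were looked up after its values were seen. Ifng, which encodes interferon gamma, was at 1.49 CPM in mouse 3 and at 0.0409, 0.0432 and 0 CPM in mice 1, 2 and 4. Osm, which encodes oncostatin M, was at 12.7 CPM in mouse 3 and at 0.532, 1.90 and 1.47 CPM in mice 1, 2 and 4. The source of the difference was not tested.

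Against vehicle, 6 of the 9 genes were called in dexamethasone mice, 5 higher and 1 lower, with 55.8% of all genes called, 26.4% as higher and 29.4% as lower. With all mice none passed the DEG limit, which 9.68% of all genes passed, and Socs1 passed it without dexamethasone mouse 1, 2 or 4. The groups did not overlap in 4 of the 9 genes (Jak1, Jak2, Tyk2 and Cish), as in 41.7% of all genes. Cish was 1.40-fold higher (log2 0.48, SE 0.11, adjusted p = 0.000547, edgeR). The summed leukocyte markers of the 2 groups overlapped, and their part in this difference was not tested. Tyk2 was lower (-0.57, SE 0.11, adjusted p = 9.97e-05). Jak1 was higher (0.21, SE 0.07, adjusted p = 0.00895), with the call lost without vehicle mouse 2 (0.15, adjusted p = 0.0549).

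Jak2 was also higher with dexamethasone than with vehicle (log2 0.53, SE 0.15, adjusted p = 0.00368, edgeR), and with 0.36 without mouse 3 (adjusted p = 0.0459). The calls of Socs1 (1.40, adjusted p = 0.0064) and Socs3 (0.81, adjusted p = 0.0277) rested on mouse 3. Without it they were 0.33 (adjusted p = 0.367) and 0.25 (adjusted p = 0.448). The Socs3 call was lost too without vehicle mouse 1 (0.72, adjusted p = 0.0615) or vehicle mouse 2 (0.75, adjusted p = 0.0546). Jak3 was not called with all mice (-0.31, adjusted p = 0.149) and was lower without mouse 3 (-0.52, adjusted p = 0.0216). Socs2 was not called (0.32, adjusted p = 0.0973) and was called without dexamethasone mouse 1 (0.42, adjusted p = 0.0465).

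**Figure D3:**
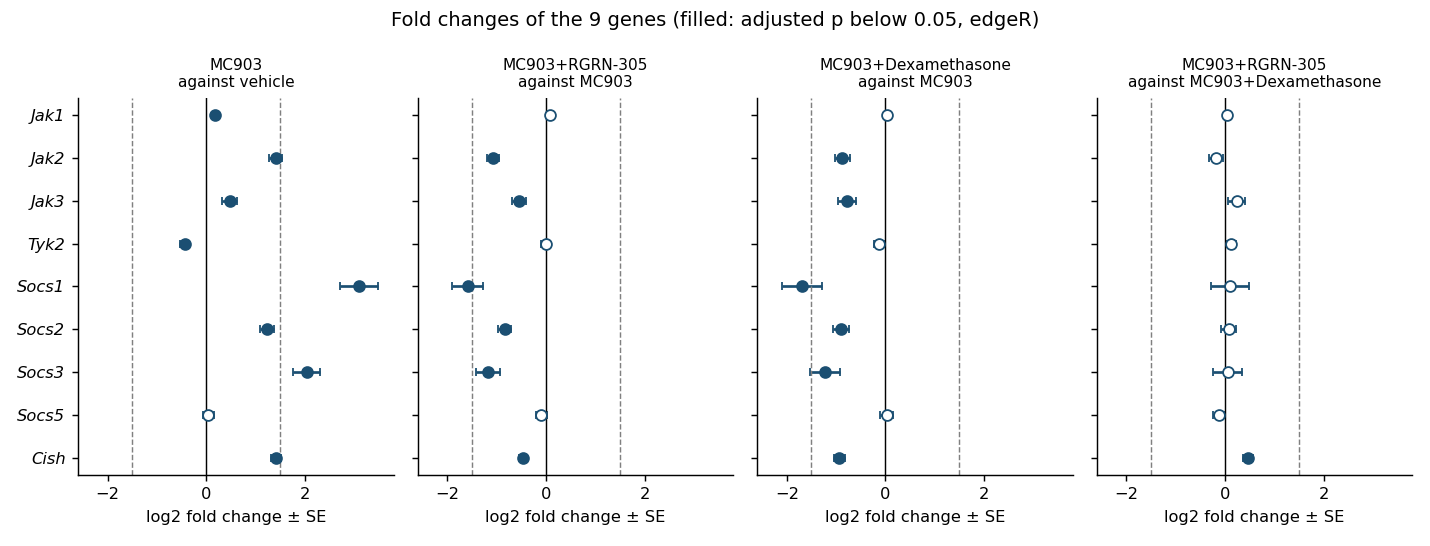
Log2 fold change of each gene in 4 comparisons, with bars of 1 SE from the edgeR model. Filled points have an adjusted p below 0.05 and dashed lines mark the DEG limit of 1.5. Socs1 and Socs3 are the points past the line for MC903 against vehicle, and Cish is the 1 filled point between the drugs.

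Between the drugs, 1 of the 9 genes was called, with 35.4% of all genes called, 17.6% as higher with RGRN-305 and 17.8% as lower. None of the 9 passed the DEG limit (3.78% of all genes did), by edgeR or DESeq2, and the groups overlapped in all 9, against 18.6% of all genes whose groups did not overlap. It was Cish, whose level after RGRN-305 was 1.38-fold that after dexamethasone (log2 0.47, SE 0.11, adjusted p = 0.00113, edgeR), and 7 of 8 RGRN-305 mice lay above all dexamethasone mice. The call held with any 1 mouse left out (0.42 to 0.53). In the same comparison 4 of 6 leukocyte markers (median log2 0.78) and 7 of 8 T cell markers (median 1.14) were higher with RGRN-305. In these lists 0 were lower (also 0 with DESeq2 and at an unadjusted p). Of 8 macrophage and monocyte markers 1 was lower, and of 6 mast cell markers 4 were lower. The part of these cells in the Cish difference was not tested. Relative to the change that MC903 made on the log2 scale, the fall of Cish was 32.9% with RGRN-305 and 66.0% with dexamethasone, and the same MC903 mice enter both terms of each ratio.

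For the other 8 genes the difference between the drugs was not called, and its 95% interval on the log2 scale (normal, from the SE) gives the sizes that these mice allow. For Jak2 it ran from -0.47 to 0.09 around -0.19 (adjusted p = 0.305, edgeR). For Socs1 it ran from -0.65 to 0.87 around 0.11 and for Socs3 from -0.52 to 0.62 around 0.05. Without dexamethasone mouse 3, Socs1 was higher with RGRN-305 (1.18, SE 0.29, adjusted p = 0.00259) and 2 members were called, and Socs3 was at 0.61 (adjusted p = 0.0712). Jak2 was then at -0.01 (adjusted p = 0.954, edgeR) and Jak3 at 0.45 (adjusted p = 0.0516), neither of them called.

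The leukocyte markers moved with several of these genes. In dexamethasone mice 1, 2 and 4 the summed markers (72.3 to 121 CPM) were in or below the vehicle range, and Jak3 was in or below its vehicle range in all 4 dexamethasone mice, mouse 3 included. Jak3 was also within the vehicle range in all 8 RGRN-305 mice, whose summed markers were above it. In MC903 mice the markers were above every other mouse, as were Jak2, Socs1, Socs2 and Cish with the exception of dexamethasone mouse 3 for Socs1. Of all genes, 34.5% rose with MC903 and 35.7% fell. Of 8 T cell markers 7 rose with MC903, as did all 8 macrophage and monocyte, all 5 NK cell and all 4 tested neutrophil markers. Markers of fibroblasts (6 of 6), skeletal muscle (6 of 6) and adipocytes (5 of 5), as well as mast cells (5 of 6) and endothelium (4 of 5), were lower, and 6 of 7 keratinocyte markers were higher and 1 lower. The part of these cell types in the levels of the 9 genes was not tested.

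**Figure D4:**
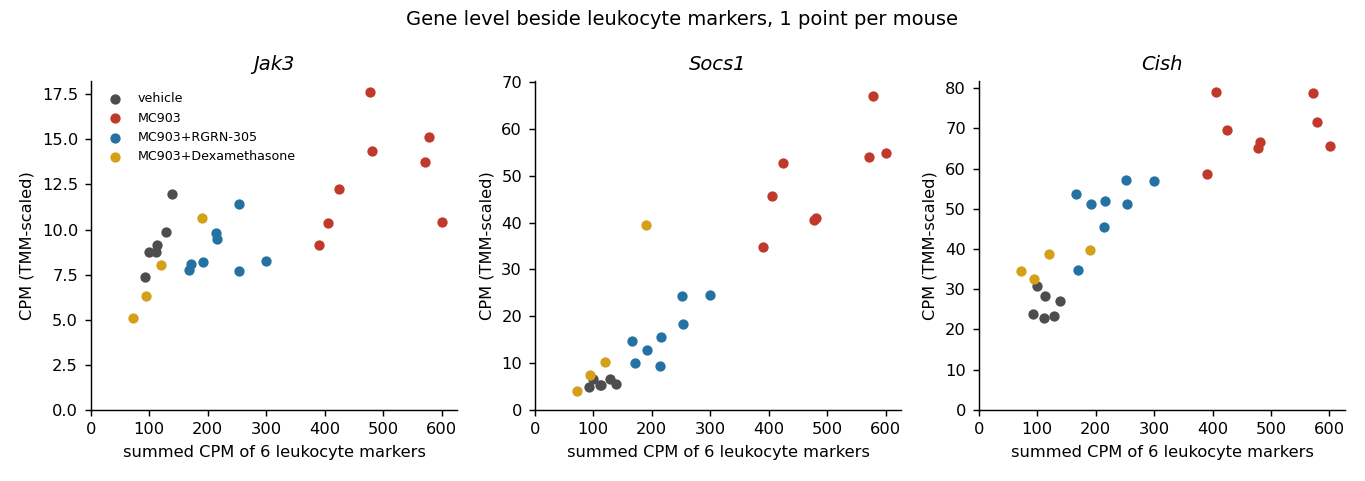
CPM of Jak3, Socs1 and Cish (y axis) beside the summed CPM of 6 leukocyte markers (x axis), with 1 point per mouse, coloured by group. Dexamethasone mouse 3 is the point of its group at 190 CPM of markers and 39.4 CPM of Socs1. The Cish points of the dexamethasone group lie above all vehicle points, and the marker levels of these groups overlap.

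The rest of the pathway was read from 10 gene lists. Of all genes, 34.5% were called higher with MC903 and 35.7% lower. With MC903, 10 of 11 receptors of the common gamma chain and IL-4/IL-13 family rose and 0 fell (also 0 with DESeq2 and at an unadjusted p), and their median log2 fold change was 2.35. Examples were Il2ra (3.29, SE 0.29), Il4ra (3.15, SE 0.25), Il13ra1 (0.96, SE 0.10) and Il2rg (2.60, SE 0.26), the common gamma chain that recruits Jak3. Of 20 tested ligands 14 rose and 2 fell. Tslp, the epithelial cytokine whose receptor uses Jak1 and Jak2, had 3.94 (SE 0.29), and Lep, which encodes leptin of fat cells, had -2.98 (SE 0.21). Of the 10 gp130 family receptors 5 rose and 3 fell, among them Osmr (1.37, SE 0.11) and Lepr (-1.86, SE 0.16).

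Of the 7 STAT genes 5 rose with MC903 and 1 fell, beside 34.5% and 35.7% of all genes. Among the rises were Stat4 (log2 3.87, SE 0.41), Stat2 (2.65, SE 0.33), Stat3 (1.23, SE 0.09) and Stat6 (0.45, SE 0.06). Stat5b fell (-0.19, SE 0.07), and Stat5a, with which it forms the factor upstream of Cish, had 0.06 (adjusted p = 0.535). All 10 general targets of STAT factors were called, 8 higher and 2 lower, with Junb (2.10, SE 0.09), Pim2 (1.52, SE 0.12), Bcl3 (3.57, SE 0.26) and Pim1 (0.97, SE 0.08) in front.

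Relative to MC903 alone, 19.4% of all genes were lower with RGRN-305 and 18.6% higher. RGRN-305 lowered 4 of 7 STAT genes relative to MC903 and raised 0 (also 0 with DESeq2 and at an unadjusted p). Among them were Stat3 (-0.55, SE 0.08), Stat4 (-1.68, SE 0.31) and Stat2 (-1.36, SE 0.28), while Stat5a (-0.11), Stat5b (-0.08) and Stat6 were not called. It lowered 9 of 11 common gamma chain and IL-4/IL-13 receptors and raised 0 (also 0 with DESeq2 and at an unadjusted p). It lowered 7 of 10 STAT targets and raised 0 (0 with DESeq2, 1 at an unadjusted p). Of 20 ligands 8 were lower and 2 higher, with Tslp among those higher (1.43, SE 0.21).

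Relative to MC903 alone, 23.3% of all genes were lower with dexamethasone and 23% higher. Dexamethasone lowered 5 of 7 STAT genes, 10 of 11 common gamma chain and IL-4/IL-13 receptors and 15 of 20 ligands relative to MC903. Among the STAT genes were Stat4 (-2.25, SE 0.42) and Stat3 (-0.52, SE 0.10). The call of Stat5a (-0.22, adjusted p = 0.0482, edgeR) was lost in 11 of 18 alternatives and that of Stat2 (-1.15, adjusted p = 0.0103) in 2 of 18. Without mouse 3 the counts were 5 of 7 STAT genes, 10 of 11 receptors and 16 of 21 ligands. Of the STAT targets 5 were lower and 2 higher, the latter being Myc (0.85, SE 0.11) and Ccnd1 (0.61, SE 0.08). For these targets the counts without mouse 3 were 6 lower and 3 higher.

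Of all genes, 17.6% were higher with RGRN-305 than with dexamethasone and 17.8% lower. Between the drugs 0 of 7 STAT genes were called by edgeR, 0 by DESeq2 and 0 at an unadjusted p in the fit of all mice. Without dexamethasone mouse 3 the count was 1 of 7. Of 11 common gamma chain and IL-4/IL-13 receptors 5 were higher with RGRN-305 and 0 lower (also 0 with DESeq2 and at an unadjusted p), among them Il13ra2 (2.07, SE 0.30), the decoy receptor of IL-13, and Il15ra (0.59, SE 0.14). Without mouse 3 these were 7.

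The other SOCS genes did not move as 1 group. With MC903 Socs6 was higher (log2 0.77, SE 0.07, adjusted p = 2.75e-10, edgeR) and Socs7 lower (-0.54, SE 0.07, adjusted p = 7.65e-08), and Socs4 was not called by edgeR (0.11, adjusted p = 0.0764) but called by DESeq2 (0.13, adjusted p = 0.0269). RGRN-305 lowered Socs6 (-0.59, SE 0.07, adjusted p = 9.44e-08) and raised Socs7 (0.21, SE 0.06, adjusted p = 0.0124). Dexamethasone lowered Socs6 less, by 0.22 (-0.22, SE 0.08, adjusted p = 0.0249), and Socs6 was lower with RGRN-305 than with dexamethasone (-0.37, SE 0.08, adjusted p = 0.000693). The dexamethasone call of Socs6 was lost in 4 of 18 alternatives, among them those without mouse 1 (-0.18, adjusted p = 0.118) or mouse 2 (-0.21, adjusted p = 0.065). Of 13 other inhibitors of the pathway 5 rose and 5 fell with MC903, close to the shares of all genes (34.5% higher and 35.7% lower). Usp18, a brake on type I interferon receptors, was at 5.64 (SE 0.62) and Lrig1 at -1.31 (SE 0.09).

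**Figure D5:**
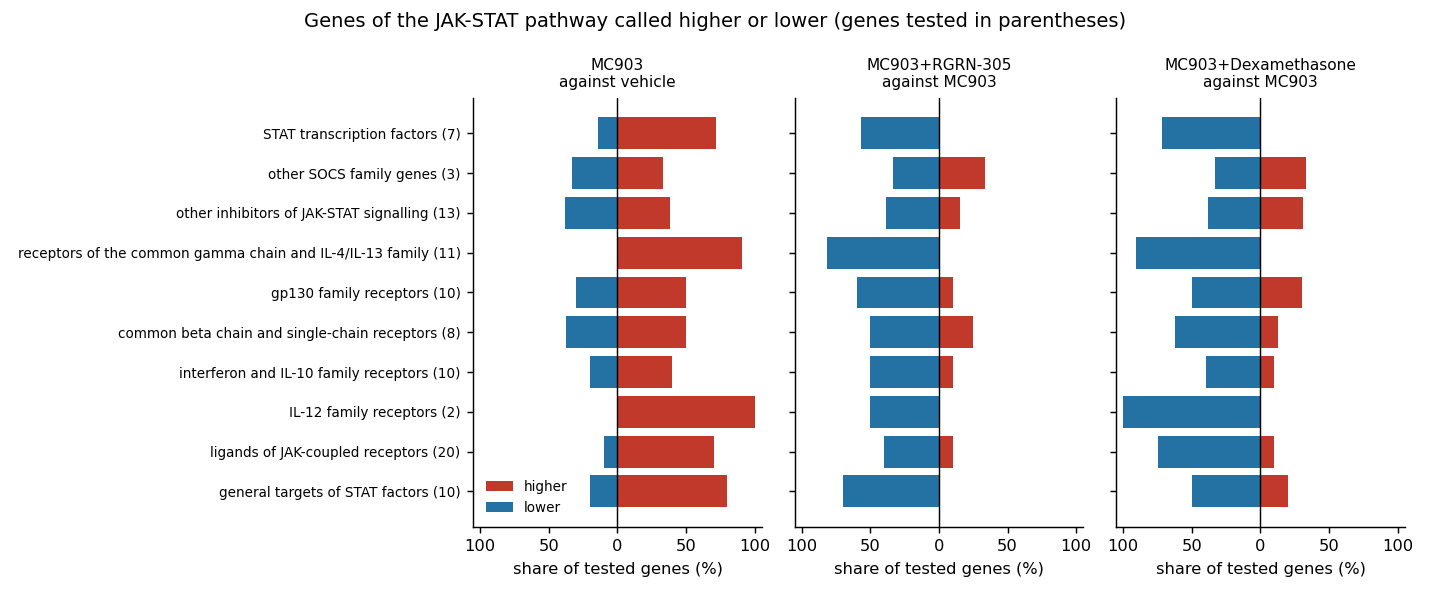
Share (%) of the tested genes of each pathway list that were called higher (red, right) or lower (blue, left) in 3 comparisons, with the number of genes tested in parentheses. Of the 11 receptors of the common gamma chain and IL-4/IL-13 family, 10 are higher with MC903, 9 are lower with RGRN-305 and 10 are lower with dexamethasone. The same shares of all genes are 34.5%, 19.4% and 23.3%.

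The genes whose levels went most closely with each member from mouse to mouse were found after the mean of its own group was taken off each library, over 26 libraries and 15096 genes. These correlations are descriptions over libraries that share depth and tissue make-up. They are given only with dexamethasone mouse 3 included. Its Socs1 level was 39.4 CPM, where the other mice of its group had 4.01 to 10.1 CPM. Its Socs3 level was 129 CPM, where the others had 35.7 to 53.4 CPM. How far the values of r rest on this mouse was not tested. Jak2 went with Il4ra (Pearson r 0.93), Il18rap (0.93) and Cd300lf (0.90). Socs1 went with Samhd1 (0.95), Mlkl (0.95) and Cd274 (0.94), and Socs3 with Bcl3 (0.91), Il1b (0.89) and Myd88 (0.89). Il4ra encodes the alpha chain of the IL-4 receptor, Cd274 the ligand of the PD-1 checkpoint and Bcl3 a partner of NF-kB.

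For the others the likeness was lower or lay with other kinds of genes. Jak3 went with Csf2ra (0.89), Acap1 (0.84) and Esyt1 (0.84), Socs2 with Hcst (0.87), Rap1b (0.86) and Fpr1 (0.83), and Cish with Ptges (0.81), Il17rc (0.80) and Aggf1 (0.80). Jak1 went with Mtmr9 (0.90), Foxk1 (0.89) and Dync1h1 (0.88), and Tyk2 with Taok2 (0.91), Upf1 (0.89) and Mapk8ip3 (0.88). Socs5 went with Nabp1 (0.85), Chordc1 (0.81) and Crem (0.80). The set of 3 nearest genes of each member holds no gene more than once and none of the 9 members.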

How the data were processed

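RNA of 26 ear biopsies, 1 per mouse, was measured by paired-end sequencing with a strand-specific kit. The authors aligned reads to GRCm39 and counted uniquely aligned, unambiguous reads per gene with Subread (v. 2.10.3). The deposited table holds raw counts for 57010 genes and a gene length in bases, and the annotation release and the strand setting of the counting are not given in the sources used here. Overlapping genes of the 9 members had mean levels of at most 4.34 CPM. Groups were taken from the sample titles. Symbols and coordinates came from GENCODE (mouse release M39), which matched 56310 identifiers, and the rest held 0.0631% of counts.

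Counts were analysed with edgeR (v. 4.0.16) in R (v. 4.3.3). Genes were kept by filterByExpr (minimum count 10, minimum total 15), libraries were scaled by TMM, and all libraries entered 1 quasi-likelihood model with group means. Benjamini-Hochberg adjustment was made within each of 6 comparisons. Levels are CPM on TMM-scaled library sizes, and a level per kb divides by the deposited gene length. Correlations used log2 CPM with a prior count of 2. Alternatives were DESeq2 (v. 1.42.0), DESeq2 size factors, no filter, fits of 2 groups only, a block for the mouse number and each mouse left out, and, chosen after seeing the data, runs without the smallest libraries or without dexamethasone mouse 3, the fold limit with each mouse left out and the search for outlying mice on CPM. The procedure was tested on simulated counts. Tables and plots used Python (v. 3.11.15) with pandas (v. 2.3.3), numpy (v. 2.4.6) and matplotlib (v. 3.10.9).

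The 9 genes and the lists of pathway and marker genes were chosen with earlier results of these data known. Named genes were all 9 members, the STAT genes (values of 1 gene are not reported here) and other SOCS genes, up to 4 called genes per pathway list and comparison with the smallest p, and the 3 genes nearest to each member. Ifng and Osm were named after their values were seen.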

Additional observations from a re-analysis of the deposited data

Results flagged for a closer look

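In 4 of 36 sets of values (9 genes in 4 groups) 1 mouse lay farther from the others of its group than Dixon's 95% limit allows on the log2 CPM scale, and chance alone gives about 1 in 20. Jak1 was lowest in RGRN-305 mouse 2, with 187 CPM where the others had 203 to 214 CPM. Jak2 was lowest in vehicle mouse 2, with 36.7 CPM against 45.6 to 46.7 CPM, and this mouse had the smallest library. Socs2 was lowest in dexamethasone mouse 1, with 12.3 CPM against 16.3 to 16.7 CPM. Cish was lowest in RGRN-305 mouse 5, with 34.9 CPM against 45.4 to 57.3 CPM. On the CPM scale itself the number was 4 as well, but Cish was within the limit, and Socs3 was beyond it in RGRN-305 mouse 7, with 129 CPM where the others had 41.1 to 79.5 CPM. Dexamethasone mouse 3 was within the limit for all 9 genes on both scales.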

How the results depend on the processing

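With the log2 fold change limit of 1.5, the members called were 2 for MC903 against vehicle, 1 for RGRN-305 against MC903, 1 for dexamethasone against MC903, 0 for RGRN-305 against dexamethasone, 1 for RGRN-305 against vehicle and 0 for dexamethasone against vehicle. With 1 mouse left out these ranged from 0 to 2 for dexamethasone against MC903 and from 0 to 1 for either drug against vehicle. With each mouse left out in turn, the members called were 8 for MC903 against vehicle, 6 for either drug against MC903, 1 to 2 for RGRN-305 against dexamethasone, 6 to 7 for RGRN-305 against vehicle and 4 to 7 for dexamethasone against vehicle. Each of the 9 members had a result, called or not called, in each of 6 comparisons, which makes 54 results. DESeq2 and DESeq2 size factors each left 54 unchanged, no filter 53 and the fit of 2 groups 53. Without the 2 smallest libraries (chosen after seeing the data) 52 were unchanged. The calls of Jak2 for RGRN-305 against vehicle (log2 0.29, adjusted p = 0.0636, edgeR) and Socs3 for dexamethasone against vehicle (0.78, adjusted p = 0.0526) were lost. With no filter Socs3 lost the same call (0.81, adjusted p = 0.0593), and with the fit of 2 groups Socs2 gained it (0.37, adjusted p = 0.0112). Mouse numbers gave no sign of pairing. Same-numbered mice of different groups deviated together with r from -0.342 to 0.286, and 8 of 32 pairs were above 0.1. For mice of other numbers r ran from -0.361 to 0.431, and 59 of 216 pairs were above 0.1. The fit with the mouse number as a replicate block left all 54 results unchanged. In it 8 members were called for MC903 against vehicle, 6 for either drug against MC903 and 1 between the drugs. For RGRN-305 against vehicle 7 were called, and 6 for dexamethasone against vehicle. Of all genes, those past the limit of 1.5 without a filter were 5030 and not 3032 for MC903 against vehicle, 1514 and not 742 for RGRN-305 against MC903, and 2477 and not 1614 for RGRN-305 against vehicle. Depth limits Jak3 and Socs1 most, with as few as 125 and 82 reads in a library.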
